A study of Arabidopsis thaliana with 12 samples.

Results

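AT1G62760, AT3G57630 and AT1G11730 are 3 Arabidopsis thaliana genes whose products belong to families that modify pectin or the sugar chains of cell wall glycoproteins. They were chosen by locus as genes with large differences between the toc120 mutant and wild type (WT) in these same arrays, out of 689 loci that have a probe of their own on the array. All 3 have such a 1-gene probe, and 0 of the 3 also appears on a probe listed for several genes. The mutant samples carry the toc120 mutation, which the labels describe as impairing the import of proteins through the outer chloroplast envelope, and the comparison group is WT. Both genotypes are labelled as Columbia 0, and total RNA of each was measured on 6 arrays, numbered 1 to 6. The allele, tissue, plant age, growth conditions and array type are not stated in the labels. Nor do these tell if the 6 samples per genotype were separate plants, so that any spread or p-value below covers the difference between these samples, which may be technical. No 1-gene probe carries TOC120 itself, so the mutated gene could not serve to check the genotype labels.

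The plant primary wall is a network of cellulose, hemicelluloses and pectin, with structural glycoproteins laced through it. Homogalacturonan, the main pectin, reaches the wall with its acid groups methylated, and pectin methylesterases strip these groups off, which allows calcium to cross-link the chains. Proteins of the pectin methylesterase inhibitor family hold such enzymes in check, and they share a fold with invertase inhibitors, so that the family name alone does not fix the target. Extensins are hydroxyproline-rich rods whose hydroxyprolines carry short arabinose chains, built one sugar at a time by Golgi arabinosyltransferases, while arabinogalactan proteins carry large branched galactans started and extended by galactosyltransferases. AT1G62760 is annotated in the inhibitor family. AT3G57630 encodes the exostosin-family enzyme known as ExAD, which adds the fourth arabinose to extensin chains. AT1G11730 belongs to a galactosyltransferase family that also holds enzymes of arabinogalactan synthesis, and is described here by that family only.

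The intensities deposited by the authors run from 0 to 100 on a linear scale of unstated background correction and scaling. Array medians were 0.188 to 0.278 in toc120 and 0.151 to 0.157 in WT, so levels are given after quantile normalisation, which gives every array the same distribution of values. Between 11.8% and 16.5% of the probes were at exactly 0 on a toc120 array, and between 13.5% and 17.3% on a WT array. Such a probe is described only as listed at 0. No signal-to-background ratio could be computed from these values, so precision rests on the number of arrays. Neighbouring numbers of a genotype (1 and 2, 3 and 4, 5 and 6) were more alike across probes, with Spearman's rho of 0.952 to 0.975, than its other arrays, with 0.91 to 0.946. The labels do not say that neighbours are repeat readings of 1 sample, but 6 arrays may amount to fewer independent samples. Probes are not independent replicates, and these correlations describe the arrays only.

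The pectin methylesterase inhibitor family gene stood on the higher side in toc120, and both glycosyltransferase genes on the lower side. For each of the 3 genes the intensities of the 6 toc120 arrays and the 6 WT arrays did not overlap. Over all 3439 probes, 31.0% had non-overlapping genotypes. Because the genes were chosen from this contrast, nothing is read from their count, and the values below are a description without a test.

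AT1G62760 was measured above 0 on all 6 toc120 arrays, with a lowest quantile-normalised intensity of 0.288, a median of 0.389 and a highest of 0.448. Among the WT arrays, numbers 1, 3 and 5 were listed at 0, number 2 was at 0.093, number 4 at 0.0755 and number 6 at 0.0577. The dimmest toc120 array was therefore 3.1 times as bright as the brightest WT array. In the intensities as deposited the toc120 arrays ran from 0.3 to 0.608 and the WT arrays from 0 to 0.0757, again without overlap. On the log2 scale, with a constant of 0.0261 added to every value, the difference between toc120 and WT was 2.97, or 7.82-fold. With a larger constant of 0.24, the median of the positive intensities, it was 1.16, or 2.24-fold, so its size depends heavily on the constant.

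Odd and even numbers gave different pictures of AT1G62760 in WT. Over the even numbers, where every array was above 0, the mean was 0.387 in toc120 and 0.0754 in WT, a ratio of 5.13. Over the odd numbers the mean was 0.369 in toc120, while all 3 WT arrays were listed at 0, so no ratio is given. The log2 difference with the small constant was accordingly 3.90 over the odd numbers and 2.03 over the even ones. Averaging neighbouring WT arrays pairs a 0 with a measured value each time and yields pair means of 0.0465, 0.0377 and 0.0288, which look closer to each other than the single arrays are. On the log2 scale with the smaller constant, toc120 neighbours differed by at most 0.36 (1 and 2), against at least 1.68 in size between WT neighbours (5 and 6). In linear intensity the gaps were of similar size in both genotypes. The toc120 pairs were at 0.288 and 0.378, 0.418 and 0.335, and 0.4 and 0.448. The direction differed: odd minus even on the log2 scale was -0.36, 0.30 and -0.16 in toc120, and -2.19, -1.96 and -1.68 in WT.

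AT3G57630, the extensin arabinosyltransferase gene, had a lowest intensity of 0.0338, a median of 0.0394 and a highest of 0.0523 on the toc120 arrays. On the WT arrays the lowest was 0.157, the median 0.22 and the highest 0.281. Every array was above 0, and the dimmest WT array was 3.01 times as bright as the brightest toc120 array. As deposited this gap was narrower, with toc120 arrays from 0.0263 to 0.0628 and WT arrays from 0.129 to 0.211. Means were 0.0409 ± 0.00729 in toc120 and 0.218 ± 0.0399 in WT (SD, n = 6 arrays each), the WT mean being 5.33 times the toc120 mean. On the log2 scale the difference was -1.86, a 3.62-fold lower level in toc120, and with the larger constant it was -0.70, or 1.63-fold. The added constant of 0.0261 is not small beside the toc120 levels, and the fold on the log2 scale is below the ratio of the means.

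After quantile normalisation the difference of AT3G57630 was similar at every number. Taken number by number, the WT array was then 4.61 to 6.38 times as bright as the toc120 array of the same number. As deposited it was less even. Numbers 1 and 2 were at 0.0358 and 0.0263 in toc120 and at 0.211 and 0.173 in WT. Numbers 5 and 6 were closer, at 0.0563 and 0.0628 in toc120 and at 0.129 and 0.163 in WT. The coefficient of variation of the quantile-normalised intensity of AT3G57630 was 17.8% in toc120 and 18.3% in WT. For AT1G11730 it was 31.1% in toc120 and 22.4% in WT. For AT1G62760 it was 15.4% in toc120 and 113.5% in WT. In the TAIR10.1 gene table the gene model of AT3G57630 overlaps that of its neighbour AT3G57620 at one end. The neighbour has no 1-gene probe, and the strand that the array reads is not given in the sources used here, so a share of the neighbour's transcript in this signal was not tested.

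AT1G11730, the galactosyltransferase family gene, had a lowest intensity of 0.0691, a median of 0.11 and a highest of 0.159 in toc120, against 0.364, 0.544 and 0.646 in WT. Here the dimmest WT array was 2.29 times as bright as the brightest toc120 array, the narrowest gap of the 3 genes as a ratio. In the intensities as deposited the gap was narrower still, with toc120 arrays from 0.0691 to 0.196 and WT arrays from 0.269 to 0.51. Means were 0.111 ± 0.0344 in toc120 and 0.507 ± 0.114 in WT (SD, n = 6 arrays each). The log2 difference was -1.97, a 3.92-fold lower level in toc120, and -1.08 or 2.11-fold with the larger constant.

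**Figure D1:**
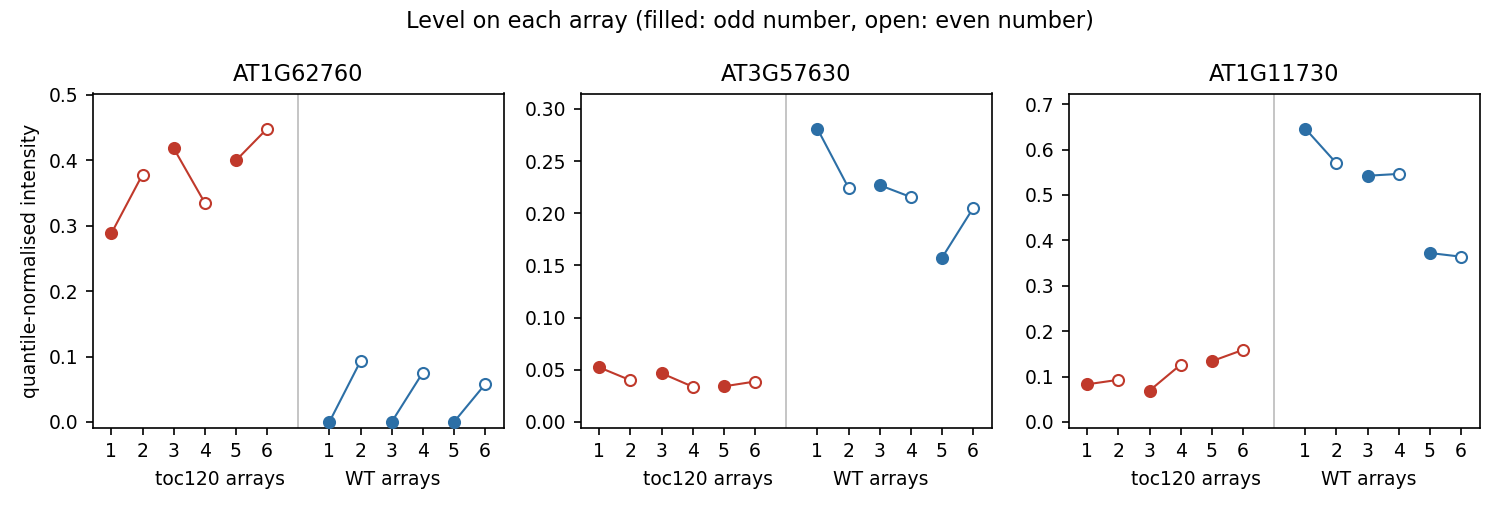
Quantile-normalised intensity (linear scale from 0) of AT1G62760, AT3G57630 and AT1G11730 on each of the 6 toc120 arrays (red, left) and 6 WT arrays (blue, right), with lines joining neighbouring numbers. AT1G62760 lies at 0 on WT arrays 1, 3 and 5 and at 0.288 or more on all toc120 arrays, whereas the other genes are brighter on every WT array.

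The difference of AT1G11730 varied between number pairs. The WT pair means were 0.608 for numbers 1 and 2, 0.544 for 3 and 4, and 0.368 for 5 and 6. In toc120 the corresponding pair means were 0.0879, 0.0977 and 0.146. The genotypes thus lay closest at numbers 5 and 6, where the WT array was 2.78 and 2.29 times as bright as the toc120 array of the same number, and farther apart at numbers 1 to 4, where it was 4.32 to 7.85 times as bright. Whether number pairs are batches is not stated in the labels. That the WT array was the brighter at each of the 6 numbers follows from the lack of overlap and says nothing on this.

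The place of each probe among all 3439 probes of its own array does not depend on how arrays are scaled to each other. It is used here to compare genotypes for 1 gene, not genes with each other. AT1G62760 stood at percentiles 61.6 to 73.4 of the toc120 arrays and 6.95 to 31.9 of the WT arrays. WT numbers 1, 3 and 5, where it was listed at 0, gave 7.39, 8.58 and 6.95. These are the middle rank shared by all probes at 0 on the array, not a measured place. AT3G57630 stood at percentiles 20.3 to 23.8 in toc120 and 44 to 60.9 in WT. For AT1G11730 the percentiles were 26.9 to 44.3 in toc120 and 68.1 to 81.2 in WT.

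AT1G62760 lay above the array median on 6 of 6 toc120 arrays and 0 of 6 WT arrays, and AT1G11730 on 0 of 6 toc120 arrays and 6 of 6 WT arrays. Such a complete change of side was seen for 108 of the 3439 probes (3.14%). The share is background only, since the genes were chosen from this contrast and a crossing also depends on how near the median a probe lies. AT3G57630 lay above the median on 0 of 6 toc120 arrays and 5 of 6 WT arrays, WT number 5 being the exception.

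**Figure D2:**
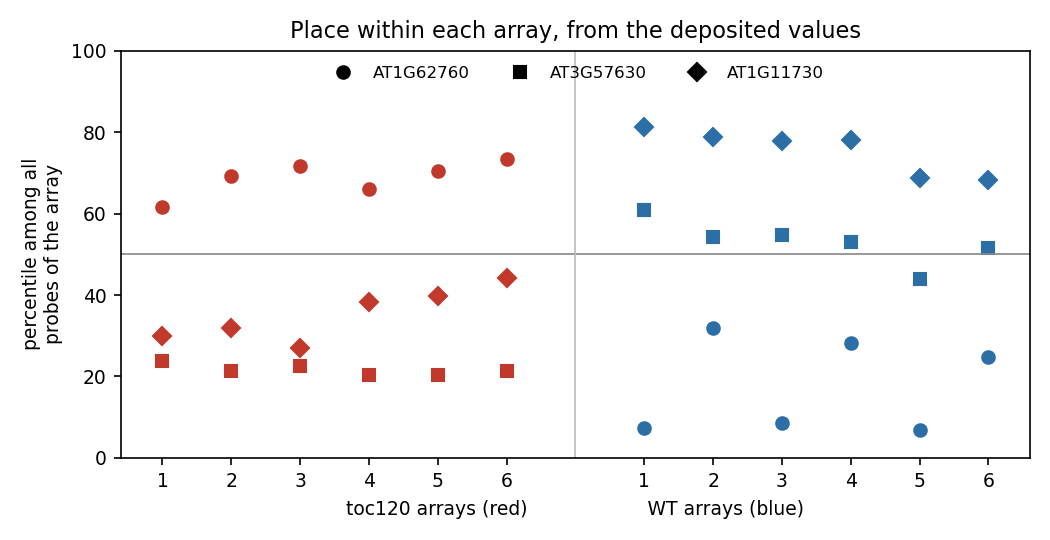
Percentile of each gene among all 3439 probes of the array, from the deposited values, for the 6 toc120 arrays (red, left) and the 6 WT arrays (blue, right), with the array median as a grey line at 50. AT1G62760 (circles) is above the line on all toc120 arrays and below it on all WT arrays, and AT1G11730 (diamonds) the reverse.

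All 3 genes kept their direction under the scalings tried, although the sizes differed. With the intensities as deposited, where the median log2 difference of all probes was 0.23, AT1G62760 was at 3.30, AT3G57630 at -1.48 and AT1G11730 at -1.53. With arrays brought to 1 common median of their positive values, where the median of all probes was -0.06, they were at 2.86, -1.94 and -2.07. After quantile normalisation that median was 0.

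**Figure D3:**
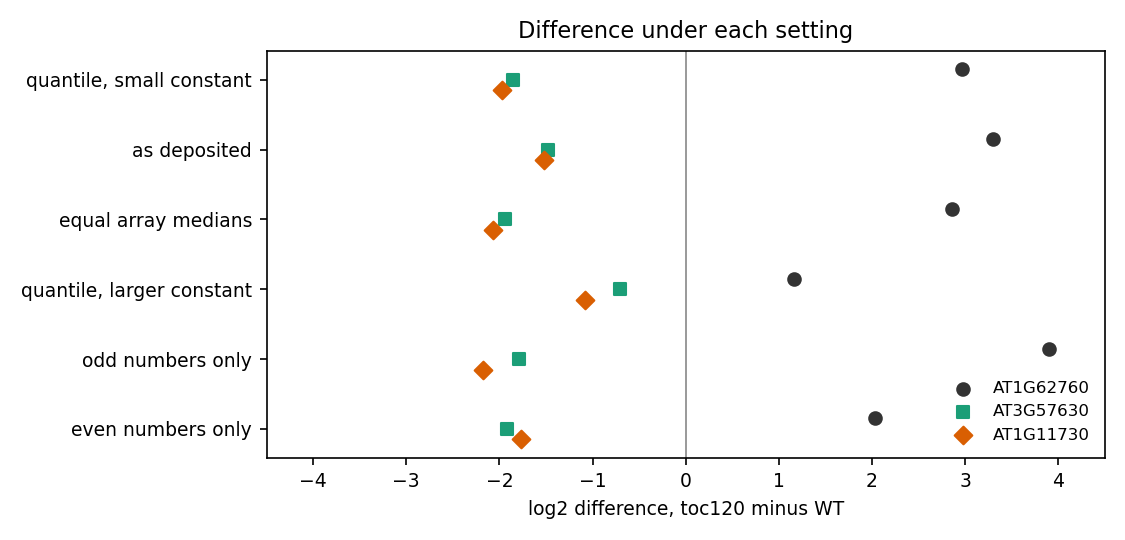
Log2 difference, toc120 minus WT, of the 3 genes under 3 scalings, the larger added constant, and the odd or even numbers alone. AT1G62760 is right of 0 and AT3G57630 and AT1G11730 left of it in every setting drawn, and the larger constant brings all 3 nearest to 0.

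The genes of most similar profile were sought among the other 691 1-gene probes, by the root mean square difference between log2 values over the 12 arrays, each gene centred on its own mean. Since the genotype difference makes up most of each profile, likeness here mostly means a similar difference. For AT1G11730 the closest were AT2G46300 at 0.22, OTP70 at 0.31 and AT3G57630 itself at 0.34, where the median over all 691 was 1.07. OTP70, a pentatricopeptide repeat protein gene, was also the closest to AT3G57630 at 0.27, followed by AT1G16080 and AT3G26580, both at 0.28, with a median of 0.99. AT1G62760 had no neighbour as close: AT1G74730, a gene of thylakoid grana organisation, stood at 0.70, AT2G23890 at 0.74 and AT4G35980 at 0.75, with a median of 1.68.

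The close profiles shared the direction of their gene, which the way they were sought favours, but could differ from it in intensity. The log2 difference was -1.67 for OTP70, -1.96 for AT2G46300 and 2.38 for AT1G74730. OTP70 averaged 0.34 ± 0.0509 in toc120 and 1.16 ± 0.297 in WT, and AT2G46300 0.244 ± 0.0713 in toc120 and 1 ± 0.107 in WT (SD, n = 6 arrays each). AT1G74730 averaged 1.3 ± 0.281 in toc120 and 0.226 ± 0.0339 in WT (SD, n = 6 arrays each). AT4G35980 was above 0 on 6 of 6 toc120 arrays and listed at 0 on 6 of 6 WT arrays, so its fitted log2 difference of 2.53 rests on the added constant, and with the larger constant it was 0.61.

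**Figure D4:**
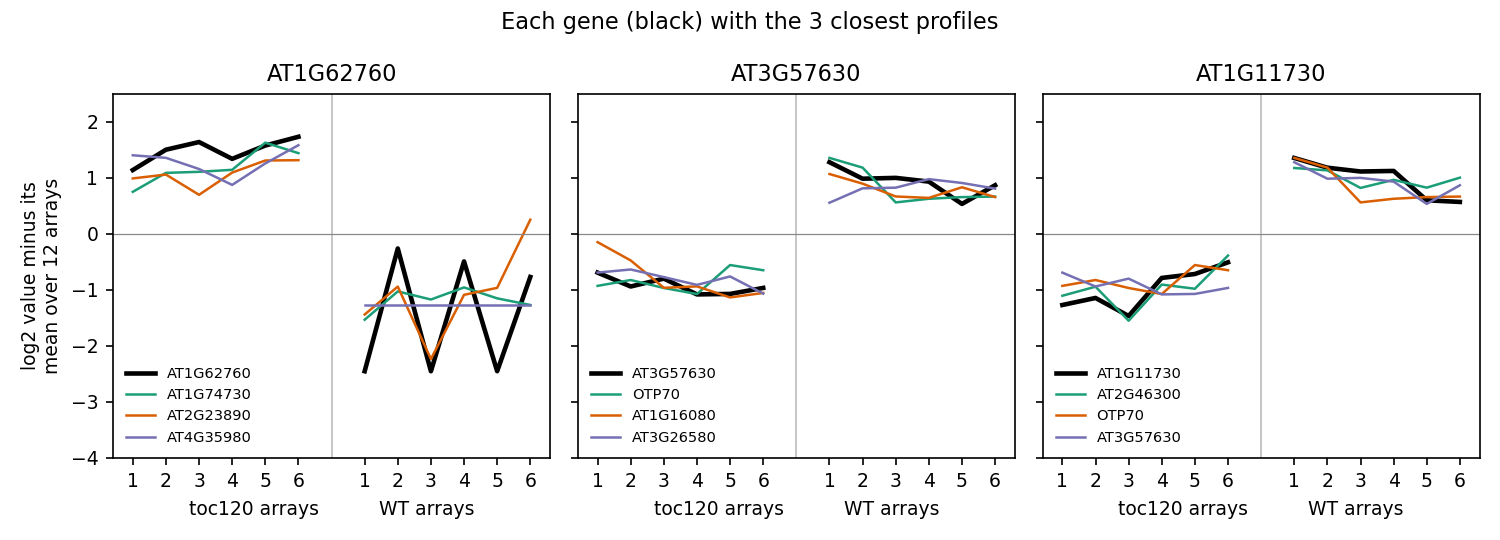
Log2 value minus the gene's own mean over the 12 arrays, for each of the 3 genes (black) and the 3 1-gene probes closest to it (coloured), on toc120 arrays (left) and WT arrays (right). AT1G62760 drops at WT numbers 1, 3 and 5, which its closest profiles do not all follow, while AT3G57630 and AT1G11730 run near their neighbours.

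Other genes of the wall were thinly covered. Of 462 loci on 7 lists of pectin, glycoprotein, cellulose and nucleotide sugar genes, 6 had a 1-gene probe. The lists of pectin synthesis and cleavage, extensins, arabinosyltransferases, galactosyltransferases with arabinogalactan proteins, and nucleotide sugars had 0 members with a 1-gene probe. Probes shared by several genes, which are not named or read by gene here, touched the pectin methylesterase and inhibitor list 6 times, the other pectin list 1 time and the cellulose list 12 times, and the remaining lists 0 times. The enzymes acting before and after ExAD and the extensins themselves are therefore not described. The 1877 probes without an annotated gene may or may not hold more of them. In limma over all 12 arrays, with Benjamini-Hochberg adjustment over all probes, 4 of the 6 passed the threshold of 0.05, 2 higher and 2 lower in toc120. Of all probes 46.1% passed, 21.4% higher and 24.8% lower. With neighbouring numbers averaged first, 2 of the 6 passed, 1 higher and 1 lower, where 31.5% of all probes did, 14.6% higher and 16.9% lower. The median log2 difference of the 6 was -0.41, and that of all probes was 0.

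AT5G62360 is the only gene of the pectin methylesterase and inhibitor list with a 1-gene probe besides AT1G62760, and its values lay on the side opposite to AT1G62760. On the toc120 arrays it was listed at 0 on number 1 and ran from 0.103 to 0.179 on the others. On the WT arrays it ran from 0.189 to 0.298, with a median of 0.263. After quantile normalisation the genotypes thus did not overlap, by a narrow margin of 1.05 times. As deposited they did overlap, with toc120 arrays from 0 to 0.219 and WT arrays from 0.148 to 0.222. The log2 difference was -1.20 (SE 0.44, limma adjusted p = 0.0443 over the 12 arrays). It did not pass with neighbouring numbers averaged (limma adjusted p = 0.134), with the sample number as a block (0.0634) or as deposited (log2 difference -0.66, 0.318). Without toc120 1, the array listed at 0, the log2 difference was smaller, -0.76, and the limma adjusted p was 0.00106. With the larger constant the log2 difference was -0.48 over the 12 arrays. Of the 12 fits that left out 1 array, 9 did not pass (up to 0.0804). That this gene and AT1G62760 differ in response was not tested.

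CSLA01, a cellulose synthase-like gene of the clade that makes mannans, lay at the dim end on all arrays. It was at 0.0295 and 0.0206 on toc120 numbers 1 and 2, listed at 0 on 3 and 4, and at 0.00714 and 0.0241 on 5 and 6. WT arrays ran from 0.0151 to 0.0502, and the genotypes overlapped. The log2 difference of -0.53 (SE 0.24) did not pass (limma adjusted p = 0.0982), except with arrays brought to 1 common median (log2 difference -0.62, limma adjusted p = 0.0241).

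The other 4 were endoglucanase genes of glycosyl hydrolase family 9, enzymes that cut beta-glucan chains such as cellulose. GH9B12 averaged 0.0872 ± 0.0329 in toc120 and 0.528 ± 0.124 in WT (SD, n = 6 arrays each; log2 difference -2.32, limma adjusted p = 1.29e-05, and 0.00562 with neighbours averaged). GH9B16 was above 0 on 6 of 6 toc120 arrays and on 3 of 6 WT arrays (log2 difference 2.68, limma adjusted p = 1.31e-05, and 0.00431 averaged), and its log2 difference was 0.83 with the larger constant. GH9B8 was higher over the 12 arrays (log2 difference 1.17, limma adjusted p = 0.0125) but did not pass with neighbours averaged (0.094), with WT numbers 5 and 6 listed at 0. Its log2 difference was 0.27 with the larger constant, and that of GH9B12 was -1.22. GH9B11 did not pass (log2 difference -0.29, limma adjusted p = 0.489), and its value was 0.10 in the intensities as deposited. Relatives of such families may share signal on a probe, which was not tested.

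**Figure D5:**
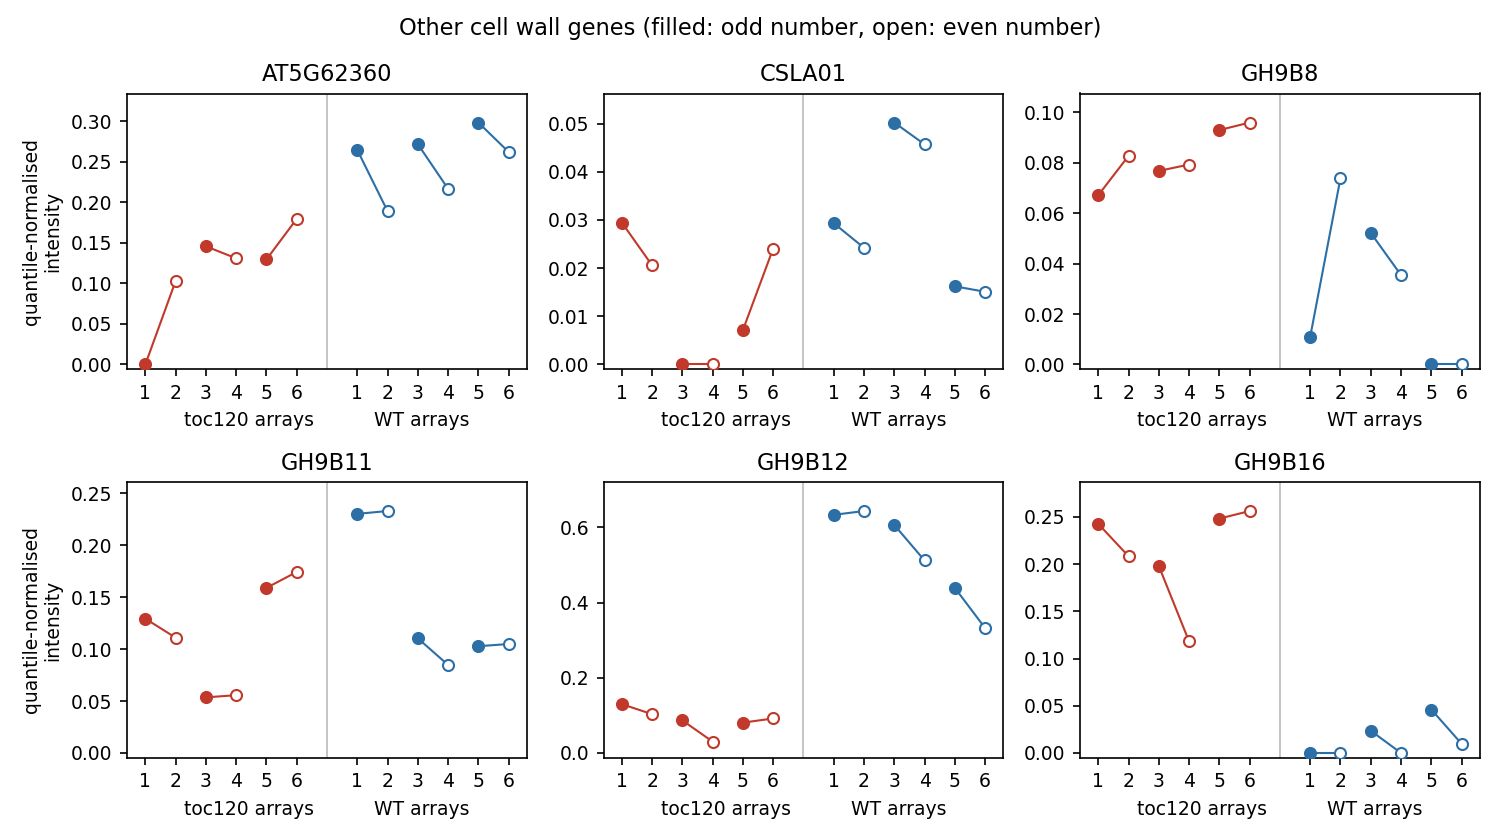
Quantile-normalised intensity (linear scale from 0) of the 6 other measured cell wall genes on each toc120 array (red, left) and WT array (blue, right), with lines joining neighbouring numbers. On this scale AT5G62360 and GH9B12 are brighter on every WT array and GH9B16 on every toc120 array. CSLA01, GH9B8 and GH9B11 overlap between genotypes, and AT5G62360 also does in the intensities as deposited.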

How the data were processed

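The data are 1 table of probe intensity values deposited by the authors, 3439 probes on 12 arrays, 6 of toc120 and 6 of WT. How these values were made is not given in the sources used here. The genes, gene lists and rules were chosen with earlier results of these data known. Gene names came from the GEO platform annotation, matched by gene identifier to the TAIR10.1 gene table: 692 probes have 1 gene (690 matched a locus, 689 loci), 870 have several and 1877 none. Arrays were quantile-normalised, and values entered as log2(value + 0.0261), the constant being the 5th percentile of positive values. The comparison used lmFit and eBayes of limma 3.58.1 under R 4.3.3 (two-sided, Benjamini-Hochberg over 3439 probes), without a block. The fit was also run on simulated data with fewer changed probes than were called here, and that run is not used as support. Figures used matplotlib 3.10.9 in Python 3.11.15.

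The genotypes share the numbers 1 to 6. Across probes, deviations from the genotype mean had a Pearson r of 0.22 to 0.35 between same-numbered arrays, and 12 of 12 arrays correlated best with their own number in the other genotype, so the numbers pair the samples in the data, though not by the labels. Alternatives were other scalings, a larger constant, a filter on probes above 0 on at least 6 arrays, neighbouring numbers averaged or as a random block, the number as a block, and leaving out each array. Odd or even numbers alone were added after seeing the data. The text names the 3 genes, every 1-gene probe on the cell wall lists, and the 3 closest profiles of each gene. List members were assigned from recalled family membership and from words in the gene table's synonyms.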

Additional observations from a re-analysis of the deposited data

Results flagged for a closer look

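AT2G23890, one of the closest profiles to AT1G62760, had 1 WT array apart from the rest. WT number 6 reached 0.214 after quantile normalisation, while the remaining WT arrays ran from 0.0168 to 0.079, a gap of 0.685 of the whole range. It was 1 of 31 groups of 6 arrays examined over 16 genes, and chance alone marks about 1 group in 20. AT1G62760, AT3G57630 and AT1G11730 had no such array.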

How the results depend on the processing

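The log2 differences of AT1G62760, AT3G57630 and AT1G11730 kept their direction under all 22 alternatives run. Most of these could not have reversed it. As the genotypes do not overlap, leaving out arrays, taking odd or even numbers, or a larger constant must keep the direction. Only the other scalings could have changed it. With the larger constant the log2 differences of the 3 genes were 1.16, -0.70 and -1.08. With the intensities as deposited AT3G57630 was at -1.48 and AT1G11730 at -1.53. AT1G62760 was at 3.90 over odd and 2.03 over even numbers, a split chosen after seeing the data. Leaving out 1 array at a time gave 2.77 to 3.21 for AT1G62760, -1.94 to -1.79 for AT3G57630 and -2.07 to -1.87 for AT1G11730. The blocks, the averaging and the filter on probes above 0 leave these differences as they are by construction. Of the 6 other cell wall probes, 4 passed in the fit over 12 arrays, and 3 to 4 without 1 array. The count was 2 with neighbouring numbers averaged, 2 with averaging and the number pair as a replicate block, 2 over odd and 2 over even numbers. It was 5 with equal array medians (2 higher, 3 lower), where CSLA01 also passed, and 3 as deposited (2 higher, 1 lower). With the sample number as a replicate block it was 3, AT5G62360 being the call lost. Over all probes 1587 passed, 1506 to 1588 without 1 array, 979 with averaging and the number pair as a replicate block, and 931 and 925 over odd and even numbers, fits with fewer samples. As deposited, 1564 passed, with 74.4% of them higher in toc120. That share was 46.3% after quantile normalisation, and the cause was not tested. The block changed no other call among the named wall genes. Levels near the added constant, as in toc120 for AT3G57630 and in WT for AT1G62760, have the least certain folds.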

Other observations

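The alternation of AT1G62760 in WT, at 0 on numbers 1, 3 and 5 and above 0 on 2, 4 and 6, was shown by 4 of the 70 probes that were at 0 on exactly 3 WT arrays, and 0 of the 70 had the opposite pattern. These counts are too small to show that odd and even numbers differ. In toc120, 4 probes were at 0 on all odd numbers alone and 4 on all even numbers alone. The overall share of values at 0 was 15.04% on odd and 14.5% on even toc120 arrays, and 15.3% on odd and 15.1% on even WT arrays.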
